A study of Mus musculus with 22 samples.

Results

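RNA-seq counts of whole mouse spinal cord were examined for 10 genes that clear calcium from the cytosol or bind it there, of 21995 genes measured. The members were taken by gene symbol, with no threshold on their values. They were 4 calcium pumps of the plasma membrane (Atp2b1, Atp2b2, Atp2b3 and Atp2b4), 3 sodium/calcium exchangers (Slc8a1, Slc8a2 and Slc8a3) and 3 cytosolic calcium buffers (Calb1, Calb2 and Pvalb). All 10 passed the filter on low counts in both comparisons. In the aging comparison, 8 old wild-type male C57BL/6 mice aged 18–24 months were set against 8 young wild-type males aged 3–4 months. In the ALS comparison, 3 symptomatic SOD1-G93A mice were set against 3 wild-type control mice, with ages of 5–6 months on the labels and 1 library per mouse. The SOD1-G93A line bears a high-copy transgene of human SOD1 with a mutation of familial amyotrophic lateral sclerosis (ALS), and models that one inherited form of the disease. Each ALS group held both sexes, but the sex of each library was not given.

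A neuron at rest keeps its cytosolic calcium far below the level outside the cell. Plasma membrane calcium ATPases, encoded by the Atp2b genes, expel calcium at the expense of ATP with high affinity, whereas sodium/calcium exchangers of the Slc8a family use the sodium gradient to move larger amounts. Calbindin (Calb1), calretinin (Calb2) and parvalbumin (Pvalb) are EF-hand proteins that bind calcium in the cytosol, and each labels particular classes of spinal interneurons. The motor neurons that degenerate early in ALS are known to hold little of these buffers.

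The young and old libraries held between 5078092 and 9358055 counts and came from KAPA HyperPrep kits of Roche. The SOD1-G93A and control libraries were prepared with Illumina TruSeq and held between 9675610 and 13219797 counts. Kit and experiment coincided, so values were compared within each experiment. As a check of the labels, the mouse gene Sod1 stood at 298, 296 and 335 CPM in the SOD1-G93A mice. It stood at 156 to 168 CPM in the controls. Here CPM is a count relative to the library total scaled by TMM factors. Reads were aligned to the mouse genome, so these values do not give the level of the human transgene. The source of the rise was not tested. Markers of the tissue were present, with all 5 Hox genes of the spinal cord passing the filter in both experiments. Below, the SOD1-G93A mice are called A, B and C and the control mice D, E and F. These letters pair no animals.

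Compared per length of transcript, in FPKM, the members kept nearly one order of abundance. In young mice Calb2 was the most abundant at 121 ± 5.37 FPKM (SD, n = 8). Pvalb followed at 84.1 ± 6.19 FPKM and Atp2b2, the rapid pump isoform of neurons, at 80.9 ± 5.18 FPKM, and the ranges of these last genes overlapped. Atp2b1, the pump found in nearly all cells, was next at 38.3 ± 2.88 FPKM, ahead of Atp2b3, a further neuronal pump, at 26.3 ± 1.44 FPKM. Atp2b4 at 15.2 ± 1.24 FPKM overlapped Slc8a3 at 13.2 ± 0.70 FPKM. Calb1 stood at 9.66 ± 0.44 FPKM, and Slc8a2 and Slc8a1 were the lowest and overlapped each other, at 6.03 ± 0.56 and 5.86 ± 0.46 FPKM. The same order of means was found in the old and control mice. In SOD1-G93A mice Atp2b4 stood above Atp2b3, at 14.8 against 11.2 FPKM, and Calb1 above Slc8a3, at 8.55 against 7.28 FPKM, with overlapping ranges in both pairs.

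For aging, 1 of the 10 members rose in old mice and 2 fell, whereas 7 did not pass the test. Parvalbumin rose by 32.8%, and the pump genes Atp2b1 and Atp2b3 fell by 17.2% and 13.2%. Of the 13647 genes tested, 13.5% rose and 12.9% fell at an adjusted p under 0.05, so the share of members called was close to that of all genes. None of the members passed a log2 change of 1, which 2.18% of all genes exceeded upward and 0.044% downward. The median log2 change of the members was -0.12, with 7 of 10 negative, against -0.0027 and 50.6% negative over all genes.

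**Figure D1:**
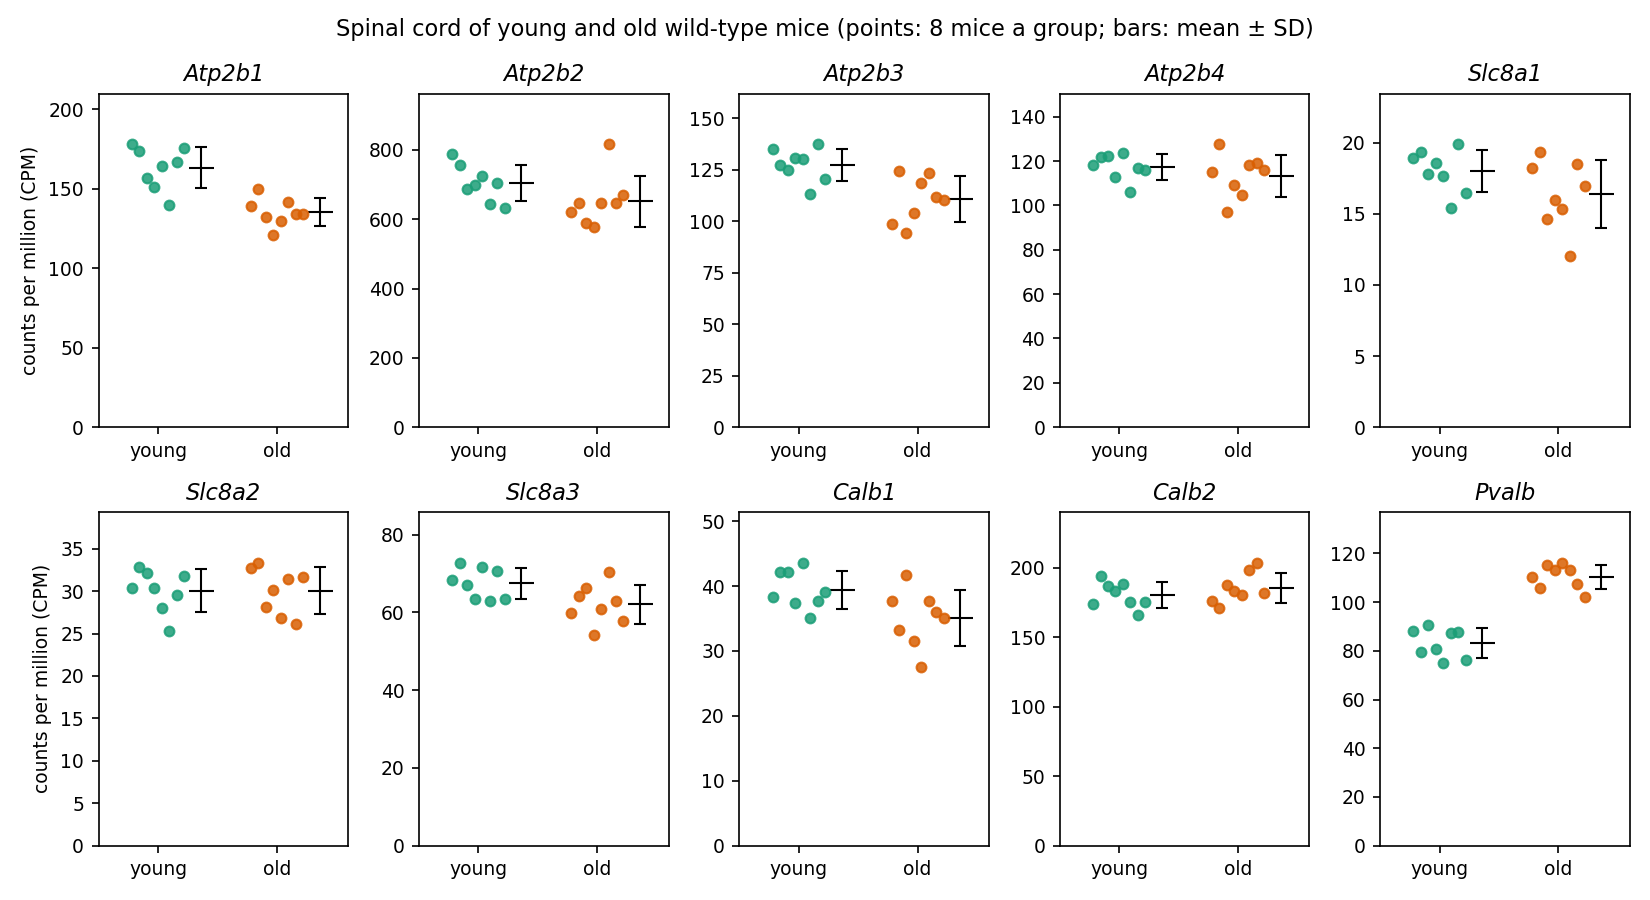
CPM of each member gene (vertical axes from 0) in 8 young and 8 old wild-type mice, 1 point per mouse, with black bars for the mean ± SD. The groups are separate only for Pvalb, with old mice between 102 and 116 CPM and young mice between 75.2 and 90.7 CPM.

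Pvalb encodes parvalbumin, a slow calcium buffer of fast-firing interneurons and of proprioceptive sensory neurons. Its level ranged from 75.2 to 90.7 CPM in young mice with a median of 84.0, and from 102 to 116 CPM in old mice with a median of 112. Every old mouse lay above every young mouse, a separation that 3.66% of all genes showed upward and 1.66% downward. The log2 change was 0.41 ± 0.05 (SE, edgeR's quasi-likelihood test, adjusted p = 6.01e-07), and an exact two-sided permutation test over the 16 libraries gave p = 0.000155, the smallest it can give with 8 against 8. Leaving out each mouse in turn moved the log2 change between 0.39 and 0.42.

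Markers were also summed for possible sources of Pvalb RNA outside spinal interneurons. Fast skeletal muscle makes much parvalbumin, and the 8 muscle markers, led by Mylpf and Acta1, summed to between 0.833 and 6.46 CPM in old mice and between 1.24 and 2.34 CPM in young mice. The muscle genes Myh4 and Tnnc2 were at 0 in every young library. The 7 markers of dorsal root ganglion neurons, led by Calca and Avil, summed to between 12.3 and 41.2 CPM in old mice and between 15.9 and 29.1 CPM in young mice, with Mrgprd at 0 in all of them. Calca had means of 22.3 CPM in old and 20.3 CPM in young mice, and Avil, the next, 0.717 and 0.504 CPM. The ganglion sum thus describes Calca rather than the list, and is a poor gauge of ganglion tissue. The ranges of both sums overlapped between the age groups, and the part of these tissues in the change of Pvalb was not tested.

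The genomic stretches before the starts of Pvalb and Slc8a3 are shown. Pvalb was chosen as the one member that rose in old mice and fell in SOD1-G93A mice. Slc8a3 was chosen as the one Slc8a exchanger that fell in SOD1-G93A mice. The stretches are the 250 bases upstream of RefSeq transcript starts on mouse build GRCm38.p6. They are read 5′ to 3′ on the minus strand, which is the strand of both genes. Pvalb lies at chromosome 15, 78191114 to 78206400, and has starts at the outer end of the gene and inside its first intron. Slc8a3 lies at chromosome 12, 81197915 to 81333180, and its window ends at the base before the first exon. Capitals mark a TATTTAA in the outer Pvalb window and an ATTGG, the reverse complement of a CCAAT box, in the Slc8a3 window.
Pvalb outer start, chr15:78206401-78206650: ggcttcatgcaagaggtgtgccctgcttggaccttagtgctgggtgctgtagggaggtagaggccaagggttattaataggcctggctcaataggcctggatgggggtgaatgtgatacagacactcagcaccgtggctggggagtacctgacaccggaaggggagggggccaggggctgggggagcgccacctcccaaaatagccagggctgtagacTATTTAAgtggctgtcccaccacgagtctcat
Pvalb inner start, chr15:78204238-78204487: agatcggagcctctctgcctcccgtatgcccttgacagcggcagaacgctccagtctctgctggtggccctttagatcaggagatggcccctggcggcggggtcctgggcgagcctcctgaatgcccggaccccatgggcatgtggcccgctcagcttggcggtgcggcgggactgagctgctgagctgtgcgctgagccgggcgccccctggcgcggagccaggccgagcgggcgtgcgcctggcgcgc
Slc8a3 start, chr12:81333181-81333430: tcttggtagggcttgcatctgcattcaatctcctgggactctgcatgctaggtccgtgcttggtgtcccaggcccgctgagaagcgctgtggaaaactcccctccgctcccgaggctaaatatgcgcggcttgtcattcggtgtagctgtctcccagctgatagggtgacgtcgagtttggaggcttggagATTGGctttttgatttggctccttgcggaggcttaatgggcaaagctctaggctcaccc

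The Pvalb windows differed in base composition. The outer one had a GC content of 58.4% with 4 CpG and the inner one 71.6% with 23 CpG, against medians of 52.4% and 6 CpG over 32851 RefSeq promoters. The Slc8a3 window had 56.0% GC and 11 CpG. The motifs searched on both strands were the GC box GGGCGG, the TATA box TATAAA, the CCAAT box and the cyclic AMP element TGACGTCA, with TATTTAA added after the Pvalb sequence had been read. The TATTTAA began 32 bases before the outer Pvalb start and occurs in 4.2% of all promoters, and the CCAAT box began 59 bases before the Slc8a3 start and occurs in 33.8%. GGGCGG occurs in 32.7% of all promoters, TATAAA in 12.4% and TGACGTCA in 1.5%, and none of these motifs was in the windows printed here. A match describes the sequence and says nothing of what binds there. Of the 10 members, 7 had an entry among these promoters.

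Among the pumps, Atp2b1 fell in old mice. Its level ranged from 140.1 to 178 CPM in young mice with a median of 166, and from 121 to 150.2 CPM in old mice with a median of 134. The groups overlapped, but 6 of 8 old mice lay below the lowest young mouse and all 8 below the young median. The log2 change was -0.27 ± 0.05 (adjusted p = 0.000383), with a permutation p of 0.000622 by the exact test.

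Atp2b3 fell as well, with a log2 change of -0.20 ± 0.06 (adjusted p = 0.0101). It ranged from 113 to 137 CPM in young mice with a median of 129, and from 94.0 to 124 CPM in old mice with a median of 111. All 8 old mice lay below the young median, and 5 lay below every young mouse. In one fit of all 22 libraries its change of -0.21 did not pass the test (adjusted p = 0.0983).

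Atp2b2, by counts the strongest of the pumps, had a mean of 705 ± 52.7 CPM (SD, n = 8) in young and 652 ± 73.5 CPM in old mice. Of the old mice 7 lay below the young median of 701 CPM, but the eighth stood apart at 816 CPM, above every young mouse. The log2 change of -0.11 did not pass the test (95% interval -0.24 to 0.01, adjusted p = 0.175). In that same old mouse the summed CPM of general neuron markers was the highest of the old group at 9031, against 7072 to 8360 in the other 7. Without it, 5 members fell in place of 2, as Atp2b2 (-0.17, adjusted p = 0.00884), Slc8a3 (-0.15, adjusted p = 0.0241) and Calb1 (-0.19, adjusted p = 0.0472) then passed the test beside Atp2b1 and Atp2b3. Calls rose over all genes too. Without this mouse 2200 of 13745 genes were lower and 2179 higher, against 1761 and 1839 of 13647 with all mice. Its microglia markers summed to 372 CPM, against 468 to 607 CPM in the other 7 old mice. Compared over all genes, its library had a chi-square per degree of freedom of 11.4 to 34.5 against each other old library. The other pairs of old libraries gave 2.76 to 13.1.

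Atp2b4, a pump found in many tissues, showed 117 ± 5.81 CPM in young and 113 ± 9.41 CPM in old mice. Its log2 change was -0.05, with a 95% interval from -0.15 to 0.06 (adjusted p = 0.516).

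None of the exchangers passed the test in aging. Slc8a3, the isoform of neurons and skeletal muscle, came closest at -0.12 on the log2 scale (95% interval -0.23 to -0.01, adjusted p = 0.0858), from 67.5 ± 3.99 to 62.1 ± 5.02 CPM. Slc8a1, the heart isoform that also occurs in brain, went from 18.0 ± 1.49 to 16.4 ± 2.39 CPM (adjusted p = 0.258). Slc8a2, the isoform of brain, had the same mean of 30.1 CPM in both age groups, with a 95% interval for the log2 change of -0.14 to 0.14.

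The other buffers did not pass the test either. Calb1, calbindin, had 39.4 ± 2.92 CPM in young and 35.1 ± 4.32 CPM in old mice, a log2 change of -0.17 (95% interval -0.32 to -0.03, adjusted p = 0.0747). Calb2, calretinin, had 180.3 ± 9.37 CPM in young and 185 ± 10.9 CPM in old mice, a log2 change of 0.04 (95% interval -0.05 to 0.13, adjusted p = 0.564). Of the 3 buffers, Pvalb alone was called.

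Markers of cell types were also summed in the aging libraries. The 8 general neuron markers, led by Snap25 and Nefl, summed to between 7072 and 9031 CPM in old and between 8057 and 9061 CPM in young mice, with 2 of 8 lower, 1 higher and none at 0. The 8 motor neuron markers, led by Slc5a7 and Prph, summed to between 251 and 314 CPM in old and between 263 and 316 CPM in young mice, with 1 of 8 lower and none at 0. The sums of both lists overlapped between the age groups. The 4 markers of inhibitory neurons, led by Slc6a5 and Slc32a1, summed to between 769 and 949 CPM in old and between 915 and 1018 CPM in young mice, with 3 of 4 lower and none at 0. The 8 microglia markers, led by C1qa and Csf1r, summed to between 372 and 607 CPM in old and between 217 and 239 CPM in young mice, with 7 of 8 higher. The 3 markers of excitatory neurons were led by Slc17a6 and Slc17a7. They summed to between 156 and 196 CPM in old and between 181 and 216 CPM in young mice. Of the 2 tested, 1 was lower. Astrocyte markers, led by Slc1a2 and Gfap, summed to 6535 to 7231 CPM in old and 5631 to 6203 CPM in young mice. Of these 6 markers, 3 were higher and 1 lower. The part of these cell types in the changes of Pvalb, Atp2b1 and Atp2b3 was not tested.

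For ALS, 5 of the 10 members fell in SOD1-G93A mice and none rose. These were the neuronal pumps Atp2b2 and Atp2b3, the exchanger Slc8a3, and the buffers Calb2 and Pvalb. Across the 14386 genes tested, 15.5% fell and 18.4% rose at an adjusted p under 0.05. Among the members 1, Atp2b3, also passed a log2 change of -1, as did 1.2% of all genes, and 8.5% of all genes passed a log2 change of 1 upward. The median log2 change of the members was -0.39, with 9 of 10 negative, against 0.0031 and 49.7% negative over all genes. For 6 members every SOD1-G93A mouse lay below every control mouse, which held for 24.7% of all genes, with the reverse in 25.7% of all genes and in no member. In whole cord, with CPM relative to the library total, a loss of neurons, less RNA per neuron and more RNA from other cells cannot be told apart.

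**Figure D2:**
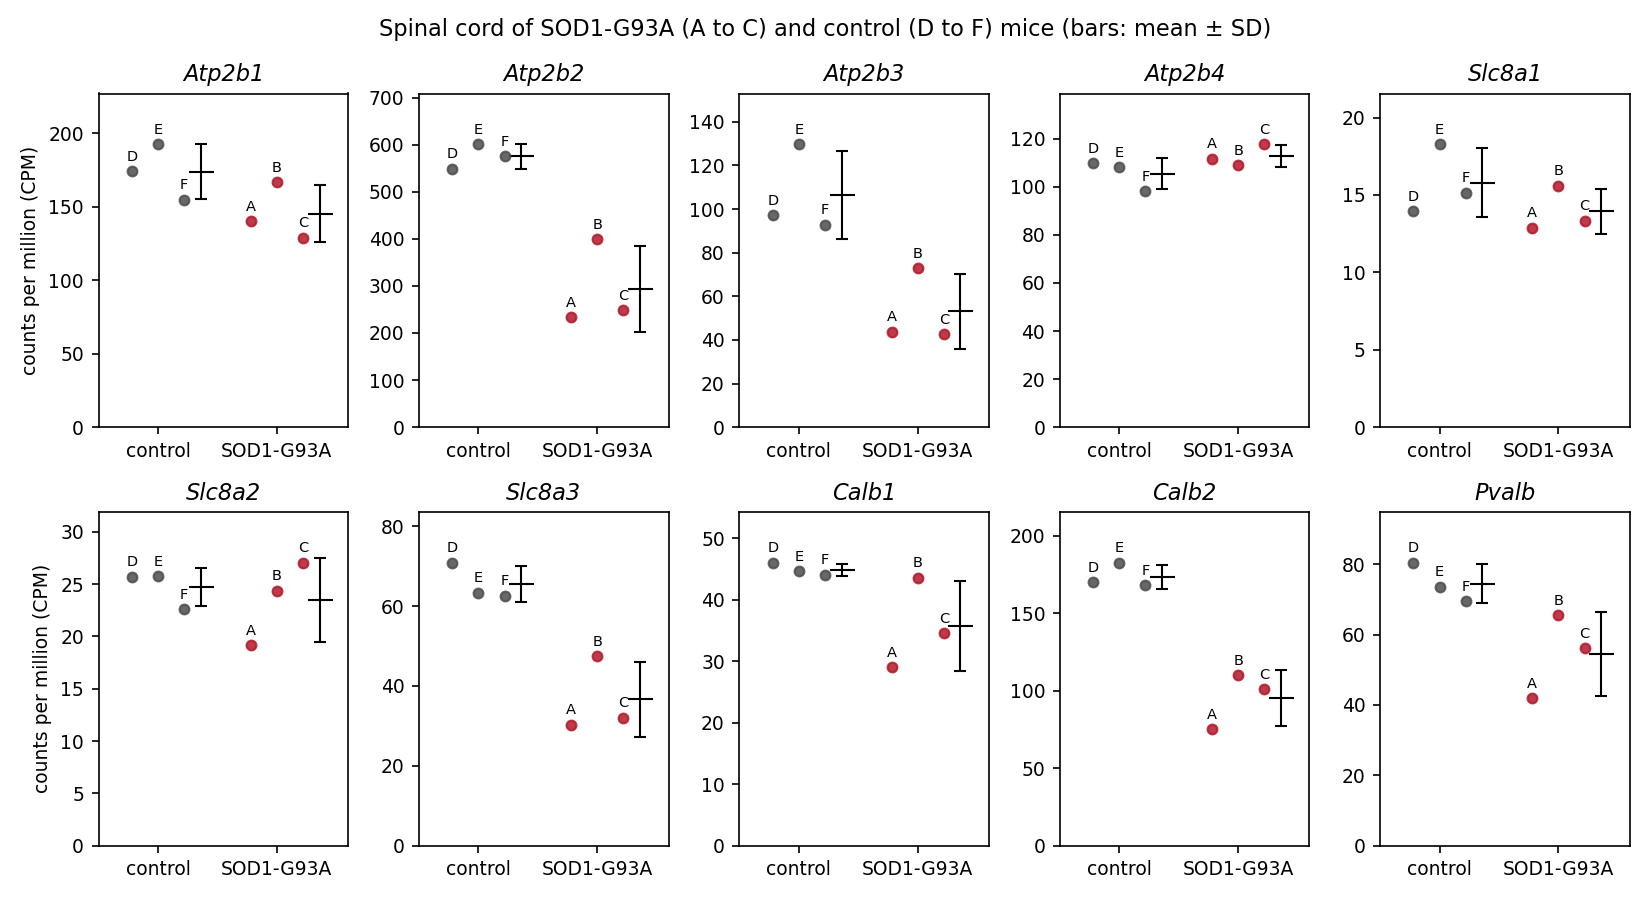
CPM of each member gene (vertical axes from 0) in control mice D, E and F and SOD1-G93A mice A, B and C, 1 point per mouse, with black bars for the mean ± SD. Mouse B is the nearest of the SOD1-G93A mice to the controls for the members that fell, as for Atp2b2 with 399 CPM against 234 and 248 CPM in A and C.

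Atp2b2 stood at 234, 399 and 248 CPM in SOD1-G93A mice A, B and C and at 549, 600.4 and 576 CPM in control mice D, E and F. All of the SOD1-G93A mice were below all controls, and mouse B was the nearest. The log2 change was -0.97 ± 0.19 (SE, 95% interval -1.40 to -0.54, edgeR's adjusted p = 0.00586). The exact permutation test cannot go below 0.1 with 3 mice against 3, which is the value Atp2b2 reached.

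Atp2b3 stood at 43.8, 72.8 and 42.5 CPM in SOD1-G93A mice A, B and C and at 97.1, 129.6 and 92.7 CPM in control mice D, E and F. The groups did not overlap, and again mouse B was the highest of its group. The log2 change was -1.01 ± 0.21 (95% interval -1.49 to -0.52, adjusted p = 0.00834).

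Neither of the more widely expressed pumps was called, and no test compared their changes with those of Atp2b2 and Atp2b3. Atp2b1 stood at 140.1, 167 and 129 CPM in mice A, B and C and at 174, 192 and 155 CPM in D, E and F, so that mouse B lay within the control range. Its log2 change of -0.26 did not pass the test (95% interval -0.54 to 0.02, adjusted p = 0.132). Atp2b4 stood at 112, 109 and 118 CPM in mice A, B and C and at 109.9, 108 and 98.1 CPM in the controls, a log2 change of 0.10 (95% interval -0.09 to 0.29, adjusted p = 0.400). It was the one member with a positive change.

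The mix of pump transcripts was also followed. Of the summed FPKM of the 4 pumps, Atp2b2 made up between 34.1% and 42.6% in SOD1-G93A mice and between 47.1% and 49.9% in controls, and Atp2b4 made up between 12.9% and 19.9% against 9.60% to 9.99%. The sum itself was 77.6 to 109.5 FPKM in SOD1-G93A mice and 129 to 148 FPKM in controls. In young and old mice the median share of Atp2b2 was 50.6% and 52.0%. These shares are descriptions without a test.

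Among the exchangers, Slc8a3 fell. It stood at 30.3, 47.4 and 32.1 CPM in mice A, B and C and at 70.8, 63.3 and 62.6 CPM in D, E and F, without overlap. The log2 change was -0.84 ± 0.16 (95% interval -1.21 to -0.48, adjusted p = 0.00561).

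The remaining exchangers did not pass the test. Slc8a1 had 13.9 ± 1.46 CPM in SOD1-G93A and 15.8 ± 2.23 CPM in control mice (log2 change -0.18, 95% interval -0.52 to 0.16, adjusted p = 0.380). Slc8a2 had 23.5 ± 4.01 CPM against 24.7 ± 1.82 CPM (log2 change -0.07, 95% interval -0.39 to 0.25, adjusted p = 0.731), with mouse C above and mouse A below every control. Both were low in this tissue, with 147 to 306 counts per library.

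Among the buffers, Calb2 showed the smallest adjusted p of the 10 members. It stood at 75.2, 110.1 and 101 CPM in mice A, B and C and at 170.0, 183 and 168 CPM in D, E and F. The groups lay well apart, with a log2 change of -0.86 ± 0.14 (95% interval -1.17 to -0.56, adjusted p = 0.00246).

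Pvalb stood at 41.9, 65.6 and 56.1 CPM in mice A, B and C and at 80.4, 73.7 and 69.5 CPM in D, E and F. Every SOD1-G93A mouse was below every control, with mouse B less than 4 CPM below the lowest of them. The log2 change was -0.45 ± 0.15 (95% interval -0.79 to -0.11, adjusted p = 0.0459). This call did not hold in 5 of the 6 fits that left out 1 mouse, in which the adjusted p ranged from 0.0802 to 0.137, and it held without mouse B (-0.60, adjusted p = 0.00299).

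Calb1 stood at 29.1, 43.6 and 34.6 CPM in mice A, B and C and at 46.0, 44.7 and 44.1 CPM in D, E and F. The groups did not overlap, but mouse B came within 1 CPM of the lowest control, and the log2 change of -0.33 did not pass the test (95% interval -0.65 to -0.02, adjusted p = 0.0954). Without mouse B, Calb1 (-0.50, adjusted p = 0.00357) and Atp2b1 (-0.37, adjusted p = 0.0133) passed it, and 7 members fell in place of 5. Calls rose over all genes too, with 3172 of 14584 genes lower without mouse B, against 2236 of 14386 with all mice.

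**Figure D3:**
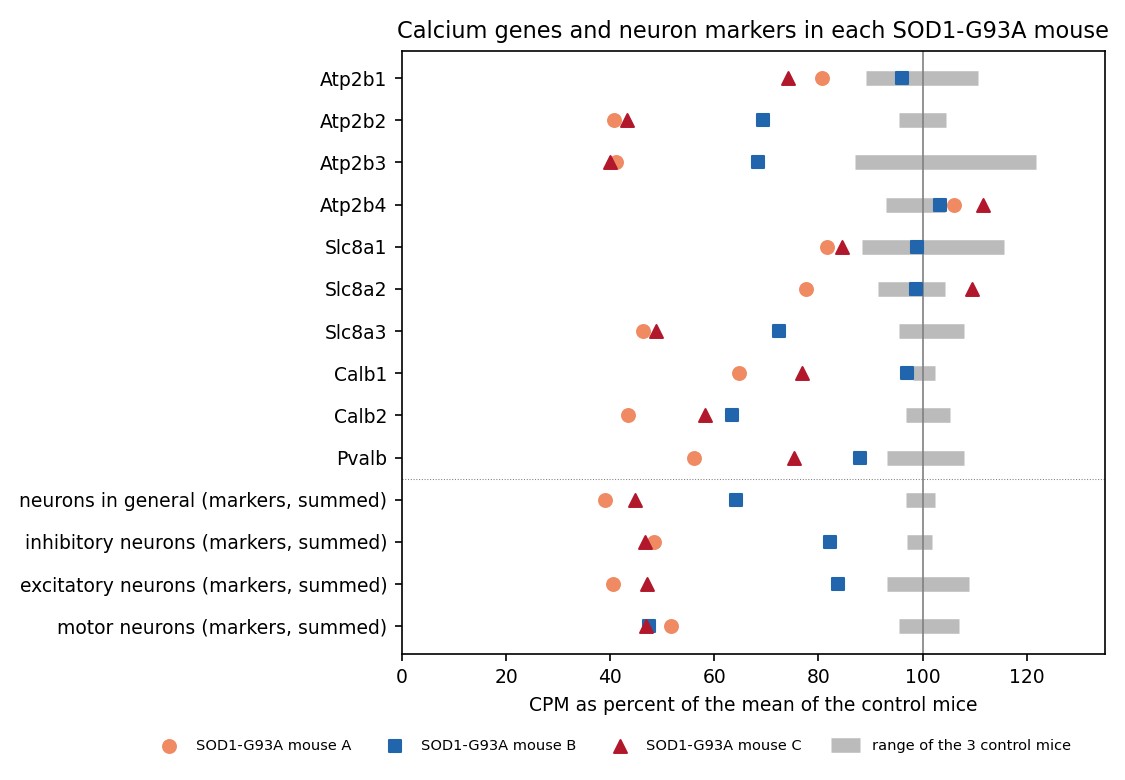
Level of each member and summed level of neuron marker lists in each SOD1-G93A mouse (symbols), as percent of the mean CPM of the 3 controls, whose range is the grey bar. For Atp2b2, Atp2b3 and Slc8a3, mice A and C lie between 39.9% and 48.9% and mouse B between 68.4% and 72.3%, and general neuron markers lie at 39.0%, 64.1% and 44.8% in A, B and C.

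Summed neuron markers were lower in the SOD1-G93A mice as well. The 8 general neuron markers, led by Snap25 and Nefl, summed to 3684, 6063 and 4236 CPM in mice A, B and C and to between 9158 and 9681 CPM in the controls, with 7 of 8 lower and none at 0. The 4 markers of inhibitory neurons, led by Slc6a5 and Slc32a1, summed to 454, 772 and 438 CPM against 910.5 to 957 CPM, with 3 of 4 lower and none at 0. The 3 markers of excitatory neurons, led by Slc17a6 and Slc17a7, summed to 93.5, 193 and 108 CPM against 215 to 251 CPM, with 1 of 3 lower and none at 0. In each list mouse B was nearest to the controls, as it was for Atp2b2, Atp2b3, Slc8a3, Calb2 and Pvalb. By percent of the control mean, mouse B was also nearest for Atp2b1, Atp2b4, Slc8a1, Slc8a2 and Calb1, which were not called. This order was thus not particular to the members that fell.

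Motor neuron markers did not share that order. The 8 markers, led by Slc5a7 and Prph, summed to 156, 143 and 141 CPM in mice A, B and C and to between 287 and 322 CPM in the controls, with 6 of 8 lower and none at 0. As percent of the control mean the sums were 51.7%, 47.5% and 46.8%, so mouse B was not set apart. Microglia markers, led by C1qa and Csf1r, summed to 1617, 869 and 1326 CPM against 231 to 278 CPM, with 6 of 8 higher. Astrocyte markers, led by Gfap and Slc1a2, summed to between 10822 and 17296 CPM in SOD1-G93A mice and between 5239 and 5777 CPM in controls, with 5 of 6 higher. The part of these cell types in the changes of the members was not tested.

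The difference between the comparisons was tested directly in one fit of all 22 libraries, as the SOD1-G93A change minus the aging change. It was more negative in ALS for 5 members and did not pass for the other 5, beside 14.2% of 14502 genes more negative and 11.6% more positive in ALS. The largest difference was that of Calb2, with -0.93 ± 0.11 on the log2 scale (adjusted p = 5.19e-06). For Pvalb, which rose with age and fell in SOD1-G93A mice, it was -0.89 ± 0.12 (adjusted p = 2.10e-05).

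Atp2b2 differed by -0.89 ± 0.16 (adjusted p = 0.000262), Atp2b3 by -0.83 ± 0.17 (adjusted p = 0.000863) and Slc8a3 by -0.75 ± 0.14 (adjusted p = 0.000251). For Atp2b1, with log2 changes of -0.27 in aging and -0.26 in ALS, the latter not past the test, the difference was -0.01 ± 0.11 (adjusted p = 0.944). For Atp2b4, Slc8a1, Slc8a2 and Calb1 the adjusted p of the difference was between 0.364 and 0.791. Kit, age and sex differ between the experiments together with the condition, so their part in these differences cannot be told apart.

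**Figure D4:**
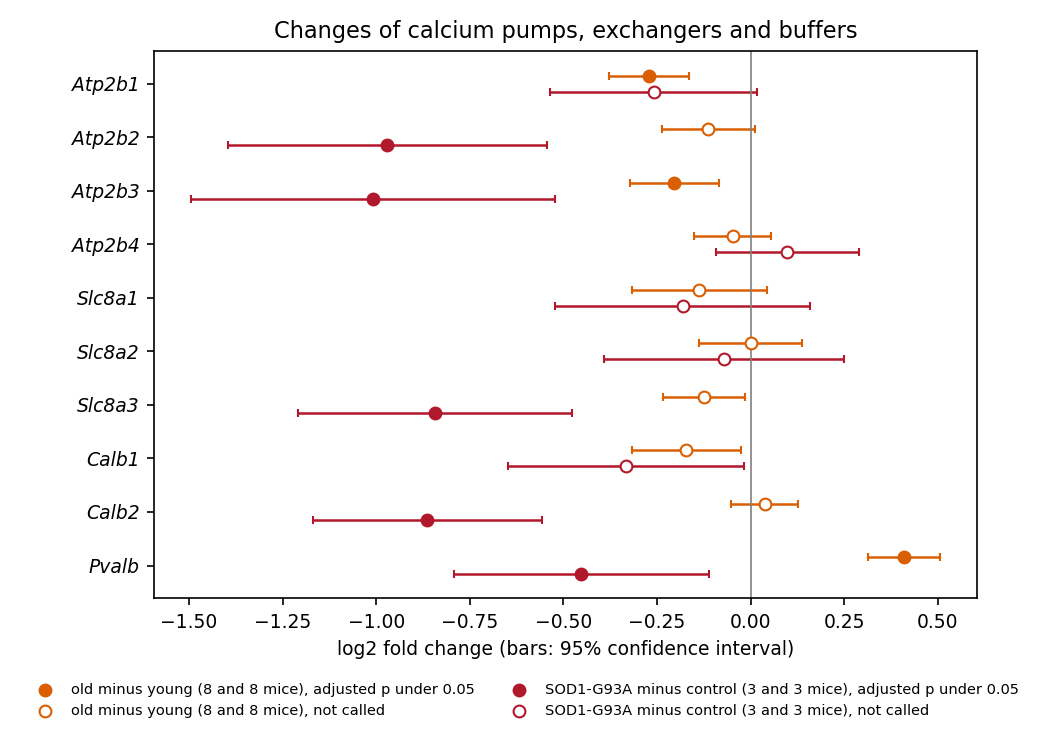
Log2 fold change of each member (horizontal axis) in old against young mice and in SOD1-G93A against control mice, with bars for the 95% confidence interval and filled points for an adjusted p under 0.05. Pvalb lies at 0.41 in aging and -0.45 in ALS, whereas Atp2b1 lies at -0.27 and -0.26.

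Other calcium-handling genes were counted from lists of 60 genes, of which 59 were in the table. In aging 51 were tested, of which 8 rose and 9 fell, beside 13.5% and 12.9% of all genes, with a median log2 change of 0.01. In ALS 52 were tested, of which 6 rose and 24 fell, beside 18.4% and 15.5% of all genes, with a median of -0.27 against 0.0031 over all genes. In aging the shares called were near those of all genes.

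Pumps and channels of internal calcium stores were among those that fell. Atp2a2, the calcium pump of the endoplasmic reticulum, fell from 862 ± 49.5 to 562 ± 81.3 CPM in SOD1-G93A mice (log2 change -0.62, adjusted p = 0.00564) and had a log2 change of -0.19 in old mice (adjusted p = 0.00306), with a difference between comparisons of -0.46 (adjusted p = 0.00171). Its aging change did not pass with limma on the deposited log2 FPKM (-0.20, adjusted p = 0.0544). Atp2c1, the pump of the Golgi, had a log2 change of -0.28 in ALS (adjusted p = 0.0442), a call lost in 5 of 6 fits that left out 1 mouse (adjusted p up to 0.159) and with limma on log2 FPKM (adjusted p = 0.123), and of -0.17 in aging (adjusted p = 0.00203). Of 6 calcium release channels, 4 fell and 1 rose in ALS, and 2 fell in aging.

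The ryanodine receptor Ryr2 fell in both, with log2 changes of -0.84 in ALS (adjusted p = 0.00762) and -0.27 in aging (adjusted p = 0.00128). Ryr3 had -0.71 (adjusted p = 0.0181) and -0.40 (adjusted p = 0.000415), but in the deposited log2 FPKM neither change of Ryr3 passed the test, with -0.10 in ALS and -0.28 in aging, and its ALS call was lost in 4 of 6 fits that left out 1 mouse (adjusted p up to 0.0843). Itpr2, the inositol trisphosphate receptor typical of glia, was the channel that rose in ALS, from 38.5 ± 4.11 to 66.7 ± 10.9 CPM (log2 change 0.79, adjusted p = 0.00355), while its log2 change with age was -0.04 (adjusted p = 0.702). Hspa5, the chaperone BiP, which also binds calcium in the reticulum, fell in old mice with a log2 change of -0.41 (adjusted p = 0.00232) and had one of 0.15 in ALS (adjusted p = 0.595).

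Of the 6 potassium-dependent and mitochondrial exchangers, 5 were tested, and 2 rose and 2 fell in ALS. Slc24a4, a potassium-dependent sodium/calcium exchanger, rose from 16.5 ± 3.07 to 57.5 ± 31.9 CPM (log2 change 1.80, adjusted p = 0.00700), whereas its change in aging was 0.02 (adjusted p = 0.934). The 2 that fell were potassium-dependent exchangers too, so this family went both ways in the same SOD1-G93A cords. Summed over the list, the level was 456 to 609 CPM in SOD1-G93A mice and 648 to 796 CPM in controls.

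Of 17 other cytosolic EF-hand genes, 14 were tested. Most are known from neurons, but S100b is chiefly a gene of glia and Sri occurs in many tissues. In ALS 8 of them fell and none rose, with a median of -0.51, and in aging 3 rose and 2 fell, with a median of 0.02. Caln1, calneuron 1, fell in both, with log2 changes of -1.21 in ALS (adjusted p = 0.00273) and -0.30 in aging (adjusted p = 1.97e-05), where every old mouse lay below every young mouse. With limma on the deposited log2 FPKM the aging change of Caln1 was -0.15 and did not pass (adjusted p = 0.0811). In ALS the log2 change was -0.97 for Necab3 (adjusted p = 0.00537), -0.70 for Ncs1 (adjusted p = 0.00488), -0.64 for Cabp1 (adjusted p = 0.00743) and -0.60 for Ncald (adjusted p = 0.0146). The call of Ncald was lost without control mouse E (adjusted p = 0.0592) and without SOD1-G93A mouse C (adjusted p = 0.0681).

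In aging, Ncald fell (log2 change -0.18, adjusted p = 0.00435) and Cabp7 rose (0.16, adjusted p = 0.00531), a call that limma on log2 FPKM did not make (0.15, adjusted p = 0.0753). The log2 changes of Necab3, Ncs1 and Cabp1 with age were 0.02, 0.01 and 0.06, with adjusted p from 0.307 to 0.924. The other 2 of this list that rose with age beside Cabp7 were S100b and Sri, named after their values were seen.

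**Figure D5:**
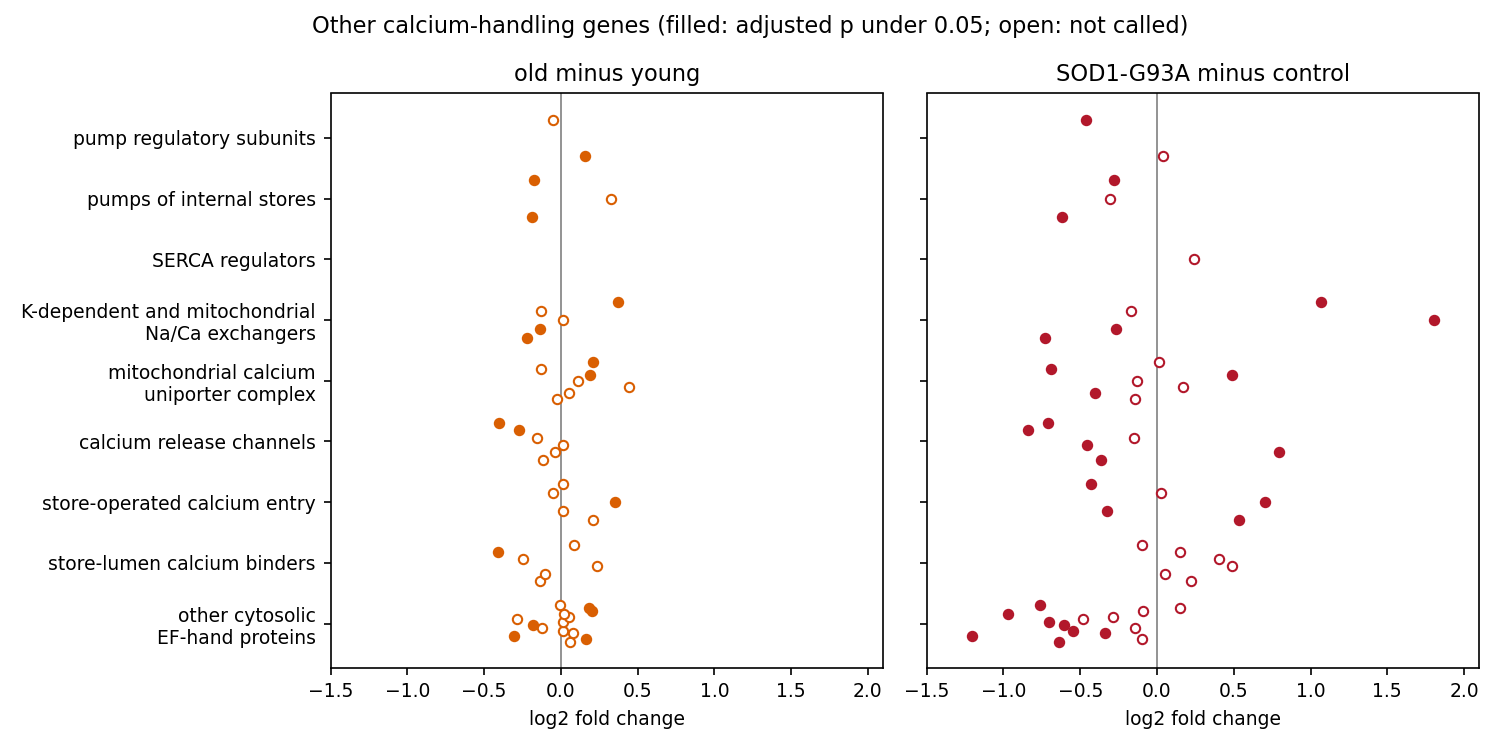
Log2 fold change (horizontal axes) of the other calcium-handling genes drawn, 48 in aging (left) and 49 in ALS (right), 1 point per gene in rows by list, filled where the adjusted p was under 0.05. Of the genes drawn, 21 fell and 6 rose in ALS, where the points spread wider, and 9 fell and 8 rose in aging.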

How the data were processed

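Whole spinal cords were sequenced by the authors on an Illumina HiSeq, aligned with STAR to mm10 and summarized with RSEM on Ensembl 88. The submitters' processing notes name SAMtools 1.3. They deposited expected counts, already whole and not normalized between libraries, and log2 values of FPKM plus 1, in which 304 values were above 0 at a count of 0. Table columns named groups, not replicate numbers. The lowest chi-square per degree of freedom between libraries of a group was 2.52, so none was counted as a duplicate. Genes were filtered with edgeR 4.0.16 (filterByExpr, minimum count 10, minimum total 15), scaled by TMM and tested with the quasi-likelihood test per experiment, with Benjamini-Hochberg adjustment over all genes and R 4.3.3. An adjusted p under 0.05 was called. CPM are TMM-scaled, and FPKM were recomputed from the log2 values. Whether reads were counted by strand is not given in the sources used here. Of the members, only Slc8a1 overlaps another counted gene, by 8 exon bases, and at most 1.06% of a member's 40-base words occur in transcripts of other genes.

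Members, lists and tests were chosen with earlier results of these data known. Beside the members, the 8 list genes with the smallest adjusted p in each comparison are named, and of each marker list given beside a result the 2 genes with the highest mean CPM, apart from markers at 0. An item that this rule would name is not reported here. On simulated counts with 200 genes changed by a log2 fold of 1.5, edgeR recovered 97% for aging (13564 genes), 97.5% for ALS (14122 genes) and 95.5% for the difference (14150 genes). The simulation set the same spread for all genes, and its fold was larger than any member's change, of which the largest was -1.01. It therefore checks the code and does not measure how often changes as small as those of the members are found. Alternatives were RLE factors, no filter, DESeq2 1.42.0, one fit of 22 libraries, limma 3.58.1 on log2 FPKM, another prior count and leaving out each library. Sex was not fitted, because it was not given for each ALS library. Library totals of 5078092 to 13219797 counts set the counting error. The p-values weigh the difference between groups against the spread between libraries. With 1 library per mouse, the spread between mice and that of preparation cannot be told apart.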

Additional observations from a re-analysis of the deposited data

Results flagged for a closer look

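In the old group, 1 mouse stood apart for Atp2b2, at 816 CPM with the next mouse at 671 CPM, a gap of 0.611 of the group's range against a critical value of 0.526 for 8 samples. In FPKM the same mouse read 81.8, with the next at 79.1. It was the 1 such case among 34 groups of 8 examined (the members and 7 marker lists in young and old mice), where chance alone gives about 1 in 20.

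The log2 change in SOD1-G93A mice minus that in old mice differed from 0 for 15 of the genes named, tested in one edgeR fit of all libraries. Among the members this difference was -0.89 for Atp2b2, -0.83 for Atp2b3, -0.75 for Slc8a3, -0.93 for Calb2 and -0.89 for Pvalb. For each of them every SOD1-G93A mouse lay below every control mouse, which also held for 24.7% of the 14386 genes tested. Among the other calcium-handling genes it was -0.46 for Atp2a2, -0.59 for Ryr2, -0.45 for Ncald, -0.74 for Ncs1, -0.72 for Cabp1, -0.29 for Cabp7, -0.93 for Caln1 and -1.02 for Necab3. It was positive for Slc24a4, at 1.76, and Itpr2, at 0.80. Of these, only Pvalb passed the test in both comparisons with opposite signs, at 0.41 in aging and -0.45 in ALS.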

How the results depend on the processing

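No paired analysis was possible because neither the labels nor the columns name pairs of animals. No member reversed a call under any alternative run. In one fit of all 22 libraries Atp2b3 lost its aging call (-0.21, adjusted p = 0.0983), leaving 1 member lower, while Atp2b1 (-0.29, adjusted p = 0.0178) and Calb1 (-0.36, adjusted p = 0.0180) gained an ALS call. With limma on log2 FPKM, Calb1 gained an ALS call (-0.46, adjusted p = 0.0375) and Pvalb lost it (-0.41, adjusted p = 0.0849). The causes were not tested. RLE factors, no filter and DESeq2 changed no member's call, nor did a prior count of 0.5 in the permutation tests. Over all genes, limma on log2 FPKM called 964 lower in aging and 1297 lower in ALS, against 1761 and 2236. Leaving out 1 mouse of the ALS experiment gave between 715 and 3172 lower, the latter without mouse B.

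Leaving out 1 mouse at a time, the aging log2 change ranged from -0.21 to -0.13 for Calb1, from -0.17 to -0.088 for Atp2b2 and from -0.15 to -0.10 for Slc8a3, and the number of members lower from 2 to 5, the latter without the old mouse with the highest Atp2b2. Without that mouse 2200 of 13745 genes were lower, against 1761 of 13647 with all mice. In ALS the log2 change ranged from -0.60 to -0.29 for Pvalb, from -0.37 to -0.18 for Atp2b1 and from -0.50 to -0.20 for Calb1, with 4 to 7 members lower. The difference between comparisons ranged from -0.37 to -0.051 for Calb1, and passed the test without mouse B (adjusted p = 0.0426). The standard errors of the members' log2 changes were 0.08 to 0.21 with 3 mice a group in ALS, against 0.04 to 0.09 with 8 in aging.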
